A study of Mus musculus with 12 samples.

Results

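Histone H3 lysine 27 acetylation (H3K27ac), which marks promoters and enhancers in use, was examined at 9 transcription factor genes that pattern the cerebral cortex: Emx2, Lhx2, Nr2f1, Nr2f2, Sp8, Dmrta2, Otx1, Gli3 and Etv5. They were taken by name from 21887 protein-coding genes, and each was read across its gene with 20 kb of flank at either end, and again with 100 kb. The tissue was whole cortex of mouse embryos at E15.5, and native chromatin cut with micrococcal nuclease was precipitated with an antibody against H3K27ac and sequenced. The cKO embryos were Emx1Ires-Cre; Prdm16flox/flox, in which Cre is made in progenitors of the dorsal forebrain and their progeny and recombines the floxed allele of Prdm16, a zinc-finger chromatin regulator. The WT embryos were Prdm16flox/flox without Cre, so both genotypes carried the floxed allele, and cells of the cortex that do not descend from Emx1 progenitors keep that allele unrecombined in cKO embryos as well. There were 3 cKO and 3 WT libraries. Nothing in the labels says whether they came from separate embryos, so the spread behind the p-values may be technical.

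The cortex is divided into areas by transcription factors expressed in gradients across its progenitors. Secreted signals at the edges of the cortical sheet set up these gradients: Fgf proteins from the anterior midline, Wnt and Bmp proteins from the cortical hem, and Sonic hedgehog from ventral regions. Emx2, Lhx2, Dmrta2, Nr2f1 and Nr2f2 act in posterior or medial territory or keep cortical identity, Sp8 and Etv5 act with Fgf signals at the anterior pole, Gli3 transmits and limits Sonic hedgehog signalling, and Otx1 works in progenitors and in deep-layer neurons.

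RefSeq promoters of GRCm38.p6, the assembly behind mm10, were available for 8 of the 9 genes, all but Otx1. The sequences below are the 250 bases before an annotated start. Gli3 is shown because its covered length differed between genotypes, Nr2f1 because it lay in the widest acetylated domain among the members, Nr2f2 because its outermost start lay outside every peak, and Sp8 because its starts differed in coverage. Capitals mark GGGCGG or its reverse complement CCGCCC, the GC box that proteins of the Sp family bind.
Gli3, chr13:15463473-15463722, plus strand: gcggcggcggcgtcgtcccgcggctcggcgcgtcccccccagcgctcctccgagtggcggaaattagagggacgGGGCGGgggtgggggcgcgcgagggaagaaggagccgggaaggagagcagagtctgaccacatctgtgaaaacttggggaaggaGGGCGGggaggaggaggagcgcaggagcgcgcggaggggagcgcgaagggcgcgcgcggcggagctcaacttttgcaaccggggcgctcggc
Nr2f1, chr13:78198874-78199123, minus strand: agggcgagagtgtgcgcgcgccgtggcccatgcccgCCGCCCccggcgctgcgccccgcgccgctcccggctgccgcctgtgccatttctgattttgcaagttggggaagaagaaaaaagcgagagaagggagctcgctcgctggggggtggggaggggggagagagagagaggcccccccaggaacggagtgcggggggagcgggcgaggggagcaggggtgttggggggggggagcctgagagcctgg
Nr2f2, chr7:70366747-70366996, minus strand: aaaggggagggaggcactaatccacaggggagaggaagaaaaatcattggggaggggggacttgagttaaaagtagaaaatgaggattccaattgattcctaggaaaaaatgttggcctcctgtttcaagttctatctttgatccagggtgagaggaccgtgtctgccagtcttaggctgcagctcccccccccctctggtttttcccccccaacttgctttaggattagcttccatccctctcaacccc
Sp8 outermost start, chr12:118846079-118846328, plus strand: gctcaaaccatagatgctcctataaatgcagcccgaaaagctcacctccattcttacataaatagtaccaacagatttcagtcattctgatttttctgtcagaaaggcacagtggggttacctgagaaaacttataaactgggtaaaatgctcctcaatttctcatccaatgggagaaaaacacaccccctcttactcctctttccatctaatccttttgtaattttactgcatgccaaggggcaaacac
Sp8 inner start, chr12:118846983-118847232, plus strand: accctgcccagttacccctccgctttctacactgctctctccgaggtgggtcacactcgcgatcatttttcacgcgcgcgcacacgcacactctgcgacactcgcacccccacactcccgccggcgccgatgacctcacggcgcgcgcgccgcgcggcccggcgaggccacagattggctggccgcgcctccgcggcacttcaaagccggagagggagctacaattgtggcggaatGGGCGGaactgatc
The 250 bases before the outermost start lay wholly under a peak in all 6 libraries at Gli3, Nr2f1, Emx2, Lhx2, Dmrta2 and Etv5. That is 6 of 8 members, where 40.8% of 32851 RefSeq promoters had some base under a peak in all 6 libraries. The Nr2f2 sequence above had no covered base in any library. Just inside that gene, chr7:70364610-70366596 had peaks in all 3 cKO libraries, WT 1 and WT 2. The outermost Sp8 sequence had 21 covered bases in WT 2 and none elsewhere, while the inner Sp8 sequence was wholly covered in all 6. Both uncovered sequences held a single CG dinucleotide, against 34 in the Gli3 sequence, 32 in the inner Sp8 sequence, 22 in the Nr2f1 sequence and a median of 6 over all promoters. GGGCGG on either strand was found 4 times at Lhx2, 3 times at Etv5, 2 times each at Gli3 and Emx2 and once at Nr2f1, and in 32.7% of all promoters. No match was found in the outermost promoters of Dmrta2, Nr2f2 and Sp8, which says only that these letters are not in that window. No outermost promoter differed in presence of a peak between the genotypes apart from the 21 bases at Sp8.

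Each library is known here from its peak list, so the measure used is covered length, the number of bases under called peaks in a gene's window. The lists were unequal: they held 59209, 58682 and 55015 peaks covering 72.9, 70.8 and 63.5 Mb in cKO 1, 2 and 3, and 66493, 75563 and 48168 peaks covering 83.3, 92.1 and 53.9 Mb in WT 1, 2 and 3. WT 2 and WT 3 stood apart from the rest in opposite directions. Covered lengths were therefore scaled to the same list total, and unscaled lengths are given beside them. Replicates 1 and 2 carried one library identifier and replicate 3 the other in both genotypes, and this batch was a term in the main fits. A peak list holds no reads, so depth is unknown, and in whole cortex fewer acetylated cells and less acetylation per cell cannot be told apart.

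Among the 9 patterning genes, Gli3 fell in acetylated length in cKO cortex when read with its 100 kb flanks, and no difference at the other 8 passed the test. The Gli3 call did not hold in the 20 kb window or under most other settings, given below. In the 100 kb window Gli3 averaged 44353 ± 2365 bp in cKO and 63418 ± 6535 bp in WT (SD, n = 3 each, scaled), a log2 change of -0.51 ± 0.10 (SE). This was the only member called, with an adjusted p of 0.0442 by limma with Benjamini-Hochberg adjustment over 18216 genes, of which 0.829% were called, 0.406% as shorter in cKO. The scaled groups did not overlap, with cKO below WT as at 5.37% of all genes. The other 8 members had positive log2 changes there, as did 64.6% of all genes. Of them Sp8, at 0.20 ± 0.09, and Otx1, at 0.24 ± 0.11, were below an unadjusted p of 0.05 but had a limma adjusted p of 0.403 each, beside 7.19% of all genes at that unadjusted threshold with longer and 4.92% with shorter length in cKO. In the 20 kb window no member was called among 15359 genes tested with limma, of which 0.69% were called, 0.319% as shorter in cKO, and 1 of the 9, Gli3, was below an unadjusted p of 0.05, as were 9.95% of all genes. The other 8 members had log2 changes between 0.07 and 0.24 there, all above 0, as were 65.3% of all genes. The median over the 9 members was 0.12, against 0.05 over all genes tested. None of the other 8 had its 3 cKO values wholly above its 3 WT values in this window, as 7.08% of all genes did.

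**Figure D1:**
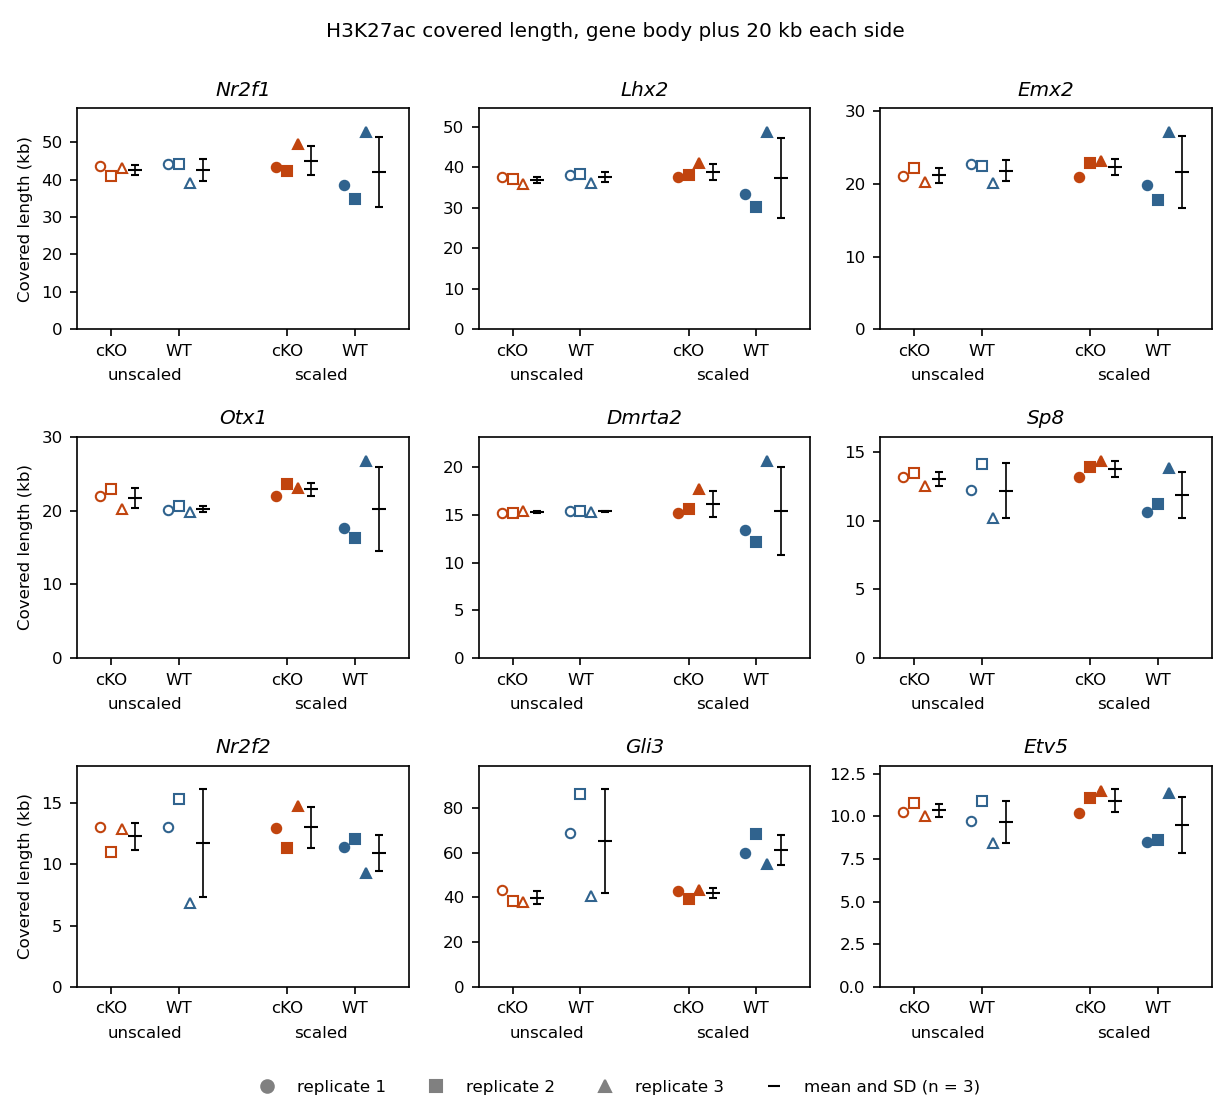
Covered length in kb for each of the 9 genes with 20 kb flanks, cKO left of WT, as deposited (open symbols) and scaled to equal list totals (filled symbols); symbols are libraries and bars the mean and SD of 3. Scaled Gli3 values lie between 39495 and 43457 bp in cKO and between 54912 and 68255 bp in WT, while the scaled values of the other genes overlap between genotypes.

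Gli3 encodes a zinc-finger protein that, as a repressor, holds back Sonic hedgehog targets in the dorsal telencephalon and is needed for the cortical hem. The gene spans chr13:15463723-15730026 on the plus strand, and no other protein-coding gene falls in its 100 kb window. In the 20 kb window it had 43197, 38442 and 37968 covered bp in cKO 1, 2 and 3, against 68799, 86399 and 40665 bp in WT 1, 2 and 3. The 3 cKO values were close together and WT 1 and WT 2 lay well above them, whereas WT 3, the library with the shortest list, lay between cKO 1 and cKO 2, so the unscaled groups overlapped. After scaling the values were 43114, 39495 and 43457 bp in cKO and 60104, 68255 and 54912 bp in WT, which do not overlap. Groups without overlap and with cKO below WT were found at 4.54% of all genes. The scaled means were 42022 ± 2195 bp in cKO and 61090 ± 6726 bp in WT (SD, n = 3 each), with a log2 change of -0.53 ± 0.12 (SE), an unadjusted p of 0.000655 and an adjusted p of 0.0703 by limma.

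The direction at Gli3 was the same in both batches, with a log2 change in the 20 kb window of -0.63 between replicates 1 and 2 of each genotype and -0.33 between the replicate 3 libraries, which are 1 pair. Every list was also reduced to 48168 peaks, as many as WT 3 held, by keeping the strongest. Gli3 then held 35442, 34919 and 34505 bp in cKO and 59256, 75660 and 40665 bp in WT. These groups do not overlap before any scaling, but only WT 3 kept all its weak peaks. With the same minimum in every list, a -log10 q of at least 5, the unscaled groups overlapped. They were 28392, 22760 and 26858 bp in cKO and 41766, 57550 and 25377 bp in WT. The call in the 100 kb window was lost without any 1 of the 6 libraries, with limma adjusted p between 0.0596 and 0.121. The lists of equal length lost it too, with a limma adjusted p of 0.0825. It was also lost without scaling, where the log2 change was -0.62 and the adjusted p 0.278, and with peaks of -log10 q of at least 5, where they were -0.48 and 0.268.

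Scaled covered length was lower in cKO in 3 of 4 parts of the Gli3 gene and similar upstream of it. With the gene cut into 4 equal parts from its start, scaled covered length in part 1 averaged 13704 ± 555 bp in cKO and 20191 ± 1204 bp in WT (SD, n = 3 each), a ratio of 0.679. Part 2 averaged 13481 ± 1899 bp in cKO and 20190 ± 2155 bp in WT, a ratio of 0.668, and part 4 averaged 5143 ± 656 bp in cKO and 9315 ± 1257 bp in WT, a ratio of 0.552. In these 3 parts every cKO library lay below every WT library after scaling. Part 3 averaged 7316 ± 332 bp in cKO and 7856 ± 2590 bp in WT, a ratio of 0.931, with WT 3 the lowest of the 6 libraries. The 100 kb upstream averaged 2718 ± 238 bp in cKO and 2684 ± 627 bp in WT, and the 100 kb downstream 1992 ± 72.3 bp in cKO and 3181 ± 746 bp in WT, a ratio of 0.626. Unscaled, every cKO library still lay below every WT library in parts 1 and 4. Part 2 overlapped when unscaled, with 14999, 11040 and 12346 bp in cKO and 22693, 28487 and 13508 bp in WT. These parts were not tested one by one, and no share over all genes was computed for them. Markers of other cells were measured beside these values. In the 20 kb windows the summed scaled length of the 4 meningeal markers Col1a1, Foxc1, Lum and Dcn was 7314 to 7923 bp in cKO and 8161 to 9219 bp in WT, and that of the 4 microglial markers Csf1r, Aif1, Cx3cr1 and P2ry12 was 7441 to 8162 bp in cKO and 8612 to 9384 bp in WT, ranges that do not overlap. The members went both ways: Dcn averaged 114 ± 197 bp in cKO and 921 ± 194 bp in WT and Cx3cr1 90.1 ± 156 bp in cKO and 1211 ± 483 bp in WT (SD, n = 3 each), while Foxc1 averaged 1072 ± 433 bp in cKO and 799 ± 738 bp in WT and Aif1 6541 ± 669 bp in cKO and 5991 ± 1200 bp in WT. Of these 8 markers, Col1a1, Lum, Csf1r and Aif1 were tested in the 20 kb windows, and none was below an unadjusted p of 0.05. Dcn, Foxc1, Cx3cr1 and P2ry12 were below the minimum length and were not tested. The part of all 8 markers in the Gli3 result was not tested.

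**Figure D2:**
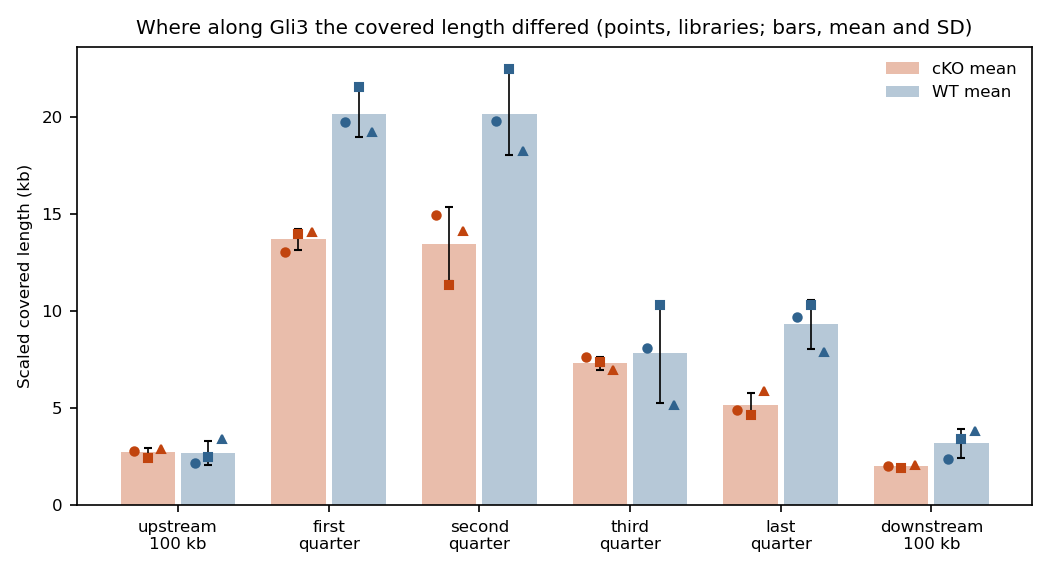
Scaled covered length in kb in 6 stretches of the Gli3 locus, cKO left of WT; bars are means with SD, and circles, squares and triangles are replicates 1, 2 and 3. In parts 1, 2 and 4 of the gene the cKO means are 13704, 13481 and 5143 bp and the WT means 20191, 20190 and 9315 bp, while the upstream stretch has 2718 bp in cKO and 2684 bp in WT.

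Merging the peaks of the 6 lists gave 44 acetylated regions in the 100 kb window of Gli3, 15 of them present in all 6 libraries. Of the 21 regions wide enough to test, 16 had a negative log2 change and 5 a positive one, where 36.5% of 40801 tested regions were negative. An unadjusted p below 0.05 was reached by 9 of the 21, all shorter in cKO, against 4.77% of all regions, and 7 of the 21 had cKO wholly below WT, against 4.95%. None passed the adjusted threshold with limma, which called 0.502% of all regions. Testing needed a mean of at least 500 bp over the 6 libraries, here as for all regions. Some Gli3 regions reached it through WT alone and could only be shorter in cKO. Those at 10.4 and 48.6 kb averaged 251 and 168 scaled bp in cKO and 1348 and 1407 bp in WT. The region with the smallest p, beyond the end of the gene and described below, also reached the minimum only through WT. These 44 regions share 1 gene and are not replicates of each other. In WT libraries alone 16 of the 44 were found and in cKO libraries alone 1, against 21.8% and 6.18% of all 85907 regions. Most of the 16 rested on WT 2, the longest list, since 10 of the 13 regions found in a single library were in WT 2 alone.

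The 3 Gli3 regions with the smallest p lay at different places. The region chr13:15740696-15742963, 278 kb from the start and beyond the end of the gene, was covered over 354, 0 and 0 bp in cKO and 946, 2082 and 1030 bp in WT, with a log2 change of -1.55 ± 0.28 (SE) and a limma adjusted p of 0.110. The region chr13:15511163-15513566, 48.6 kb into the gene, had 0, 491 and 0 bp in cKO and 1212, 2404 and 936 bp in WT, with a log2 change of -1.57 ± 0.30 and an adjusted p of 0.124 by limma. Both were thus nearly without peaks in cKO and present in all 3 WT libraries, although as weak peaks whose -log10 q, a value of the authors' peak caller, was 1.65 to 4.36 in WT. With a pseudocount of 100 bp the log2 changes were -3.02 and -3.01 and neither was called. Each was called without the 1 cKO library that had a peak there. The limma adjusted p was 0.0327 without cKO 1 at 278 kb and 0.0276 without cKO 2 at 48.6 kb. Those fits leave cKO with no covered base at the region. The smaller p thus follows from which library was left out and adds no support. The 48.6 kb region was also called with the replicate block, with a limma adjusted p of 0.0173. The third, chr13:15588518-15591203, 126 kb into the gene, had 976, 925 and 659 bp in cKO and 2559, 2682 and 831 bp in WT, with a log2 change of -0.71 ± 0.14 and a limma adjusted p of 0.144. One further region inside Gli3, chr13:15722232-15723652, had peaks in every WT library, over 1421, 1010 and 504 bp, and in no cKO library. In lists of equal length, which only remove peaks, it no longer had a peak in every WT library.

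The strong domains of Gli3 had peaks in all 6 libraries, and none passed the adjusted threshold. The widest, chr13:15539951-15558035 at 85.3 kb into the gene, had 9095, 7621 and 8717 bp in cKO and 15066, 17389 and 9980 bp in WT. Every cKO library was below every WT library there, with a log2 change of -0.57 ± 0.12 (SE) and a limma adjusted p of 0.172. The promoter domain, chr13:15461329-15472120, had 7999, 7893 and 7301 bp in cKO and 10593, 10674 and 8314 bp in WT, with a log2 change of -0.22 ± 0.12 and a limma adjusted p of 0.594. Its strongest peak had a -log10 q of 24.2 to 25.9 in cKO and 22.1 to 29.8 in WT, by the authors' peak caller, ranges that overlap. The domain chr13:15616983-15625181, 157 kb into the gene, had 5910, 5445 and 4839 bp in cKO and 6770, 8072 and 3536 bp in WT, and a log2 change of 0.01 ± 0.12. The number of Gli3 peaks in the 20 kb window was 30, 26 and 26 in cKO and 40, 37 and 27 in WT, and after scaling to list length it gave a log2 change of -0.21 ± 0.14 with a limma adjusted p of 0.807. No member was called on peak number among 16439 genes tested with limma, of which 0.0973% were, and 2 members were below an unadjusted p of 0.05, as were 9.02% of all genes: Lhx2 with a log2 change of 0.37 ± 0.17 and Nr2f1 with -0.46 ± 0.17. Both rest on few peaks: 5, 5 and 4 in cKO and 3, 4 and 4 in WT at Lhx2. Nr2f1 had 2, 1 and 1 in cKO and 2, 3 and 2 in WT.

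**Figure D3:**
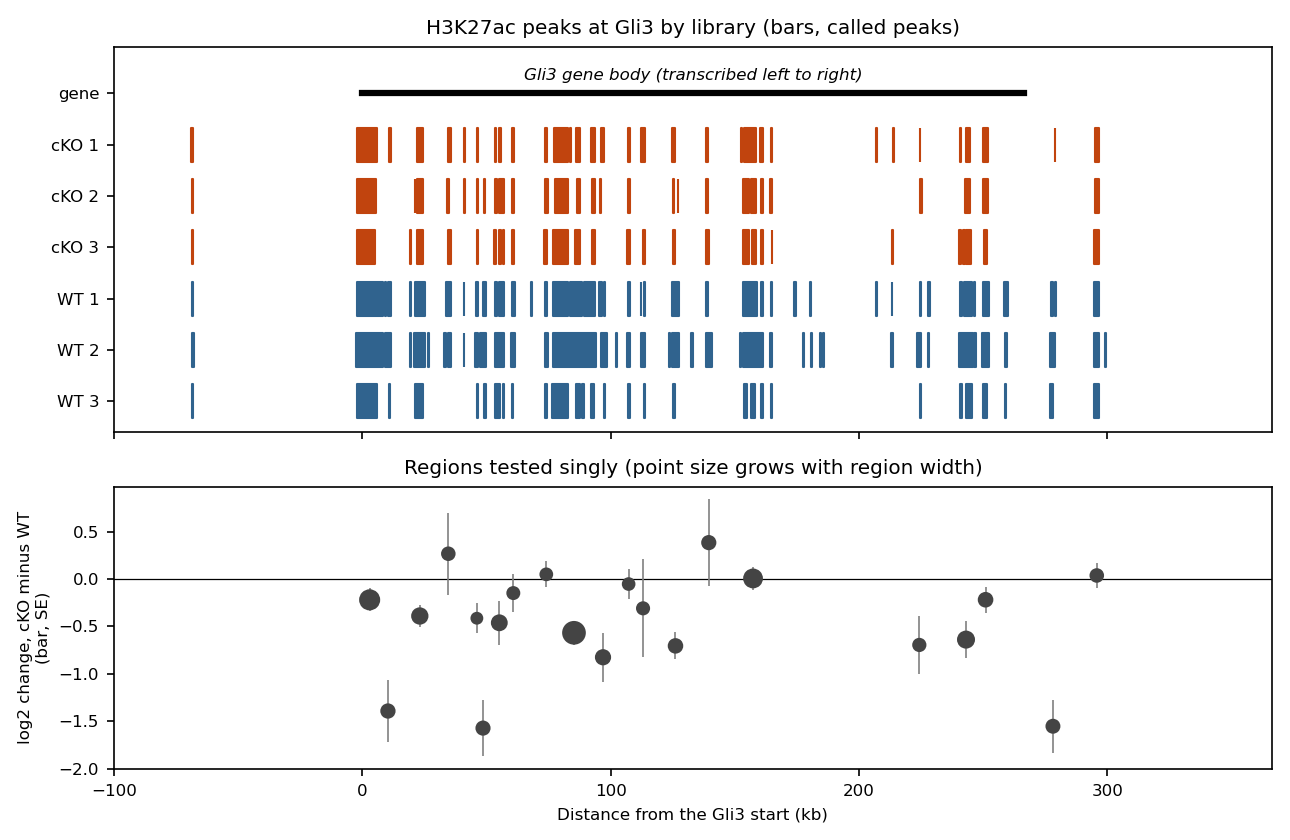
Called H3K27ac peaks (bars) in each library along the Gli3 locus by distance in kb from the gene start, with cKO rows above WT rows, and below them the log2 change with its SE for each of the 21 tested regions. Of these regions 16 lie below 0, and the peaks at 48.6 kb and 278 kb are missing from 2 of 3 cKO libraries and present in all 3 WT libraries.

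The other zinc-finger gene linked to a signalling centre, Sp8, encodes an activator of Fgf8 at the anterior pole. Its window had 13177, 13496 and 12503 bp in cKO and 12193, 14153 and 10218 bp in WT, values that overlap. The scaled means were 13776 ± 585 bp in cKO and 11877 ± 1684 bp in WT (SD, n = 3 each), with a log2 change of 0.21 ± 0.11 (SE) and a limma adjusted p of 0.575. The Sp8 window overlaps Abcb5. Etv5, an ETS factor induced by Fgf signalling, had 10236, 10796 and 10038 bp in cKO and 9746, 10893 and 8422 bp in WT, again overlapping. Its scaled means were 10932 ± 651 bp in cKO and 9497 ± 1625 bp in WT, with a log2 change of 0.20 ± 0.11 and a limma adjusted p of 0.605. In the 100 kb window the scaled Etv5 values of all 3 cKO libraries lay above those of all 3 WT libraries, as at 8.68% of all genes, with a log2 change of 0.16 ± 0.09 and a limma adjusted p of 0.518.

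The nuclear receptors Nr2f1 and Nr2f2 (COUP-TFI and COUP-TFII) differed from each other in how much of their windows was acetylated. Nr2f1, a regulator of sensory area identity, had 43535, 41066 and 43225 bp in cKO and 44198, 44121 and 39064 bp in WT. That was 85.4% ± 2.70 of its window in cKO and 85.1% ± 5.90 in WT (SD, n = 3 each), in a merged region of 50808 bp that ranked 4 by width among 85907 regions. Its log2 change was 0.12 ± 0.12 (SE), with a limma adjusted p of 0.817. Nr2f2, which acts in posterior cortex and in migrating interneurons, had 13018, 11025 and 12882 bp in cKO and 13060, 15314 and 6858 bp in WT. WT 3 was the lowest of the 6 and WT 2 the highest, and the window was covered to 22.5% ± 2.03 in cKO and 21.4% ± 7.99 in WT. The log2 change at Nr2f2 was 0.24 ± 0.14 with a limma adjusted p of 0.605, and it was 0.04 between the replicates 1 and 2 of each genotype and 0.64 between the replicate 3 libraries.

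Emx2, Lhx2 and Dmrta2 had almost the same unscaled length in every library. Emx2, a homeobox gene of posterior and medial progenitors, had 21043, 22258 and 20204 bp in cKO and 22806, 22492 and 20125 bp in WT. Lhx2, a LIM homeobox gene that maintains cortical identity against the hem, had 37592, 37129 and 35943 bp in cKO and 38226, 38342 and 36135 bp in WT. Dmrta2, a DM-domain gene needed for the hem and posterior cortex, had 15221, 15225 and 15455 bp in cKO and 15382, 15452 and 15332 bp in WT. The Dmrta2 window overlaps Faf1. All 6 Dmrta2 lengths lay between 15221 and 15455 bp although the list totals ran between 53.9 and 92.1 Mb. Once each length was scaled to its list total, WT 3 was the highest and WT 2 the lowest of the 6 libraries at all 3 genes. The scaled log2 changes were 0.07 ± 0.13 at Emx2, 0.08 ± 0.13 at Lhx2 and 0.10 ± 0.13 at Dmrta2 (SE), with limma adjusted p of 0.891, 0.874 and 0.854, and without scaling they were -0.04, -0.03 and -0.01. Otx1, a homeobox gene of progenitors and deep-layer neurons whose window reaches into Ehbp1, had 22039, 22979 and 20252 bp in cKO and 20199, 20717 and 19877 bp in WT. Its log2 change was 0.21 ± 0.14 with a limma adjusted p of 0.685, and it was 0.41 between replicates 1 and 2 of each genotype and -0.21 between the replicate 3 libraries.

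**Figure D4:**
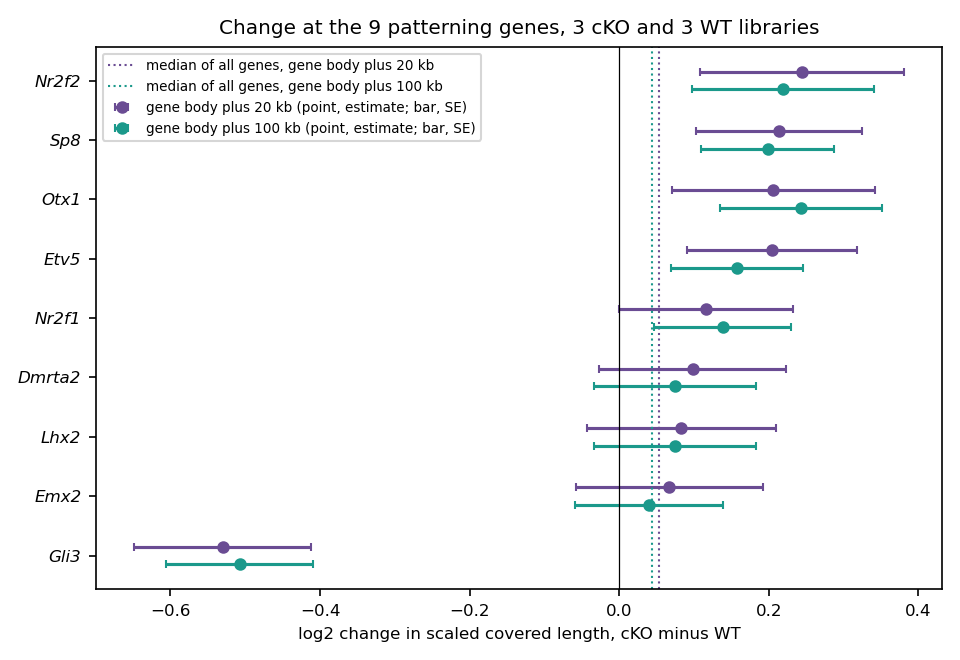
Log2 change in scaled covered length, cKO minus WT, with its SE at the 9 genes in both windows, with dotted lines at the median of all genes tested (0.05 for 20 kb, 0.04 for 100 kb). Gli3 lies at -0.53 and -0.51, and the other 8 genes lie between 0.04 and 0.24.

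By the share of the window that was covered, a level per length, the members stood between percentile 79.2 (Etv5) and percentile 99.99 (Nr2f1) of the genes tested. By the same share Nr2f1 came first, followed by Lhx2 with 52.3% ± 1.21 in cKO and 53.3% ± 1.76 in WT (SD, n = 3 each). Emx2 came next with 45.4% ± 2.21 in cKO and 46.7% ± 3.14 in WT. Otx1 came after it with 46.4% ± 2.95 in cKO and 43.2% ± 0.904 in WT. The ranges of Otx1 and Emx2 overlap. Dmrta2 followed with 33.5% ± 0.293 in cKO and 33.7% ± 0.132 in WT and Sp8 with 28.2% ± 1.10 in cKO and 26.3% ± 4.25 in WT. Sp8 and Nr2f2 overlap in WT, as do Nr2f2 and Gli3. Gli3, a long gene, had 13.0% ± 0.944 in cKO and 21.3% ± 7.53 in WT, and Etv5 came last with 10.5% ± 0.400 in cKO and 9.86% ± 1.26 in WT. The widest regions of Lhx2, Emx2, Otx1, Gli3 and Dmrta2 ranked 12, 31, 45, 52 and 78 by width among all regions. Those of Sp8, Nr2f2 and Etv5 ranked 303, 892 and 1805. The strongest peak of each window had a -log10 q, as given by the authors, of 38.1 to 66.4 over the 6 libraries at Otx1 and 40.8 to 64.6 at Lhx2, against 9.23 to 14.9 at Nr2f2. Otx1 and Lhx2 held the strongest peaks and Nr2f2 the weakest.

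Outside Gli3, 3 regions reached an unadjusted p below 0.05 and none passed the adjusted threshold. Lhx2 had a region at chr2:38394906-38396136, 56.2 kb from its start, with 1231, 988 and 758 bp in cKO and 931, 921 and 238 bp in WT, a log2 change of 0.48 ± 0.14 (SE) and a limma adjusted p of 0.286. In the Otx1 window the region chr11:22014369-22018516, inside Ehbp1, had 3762, 4071 and 2097 bp in cKO and 2335, 2320 and 1698 bp in WT, a log2 change of 0.60 ± 0.19 and a limma adjusted p of 0.327. Etv5 had a region 10.4 kb into the gene, chr16:22426779-22431644, with 4067, 4379 and 3730 bp in cKO and 3291, 3501 and 2975 bp in WT, a log2 change of 0.38 ± 0.14 and a limma adjusted p of 0.397. Of the 112 regions in the 9 windows of 100 kb, 56 were tested with limma and none was called, with 3 longer and 9 shorter in cKO at an unadjusted p below 0.05, the 9 being those of Gli3. Over all tested regions, 6.34% were longer and 4.77% shorter at that threshold, 11.1% in either direction. Outside Gli3, 3 regions had cKO wholly above WT, as did 8.56% of all regions, and 2 had cKO wholly below. Peaks in all 6 libraries marked 53 of the 112 regions, against 46.4% of all regions. A single region had peaks in all 3 cKO libraries and no WT library, chr16:22531798-22532735 inside Dgkg, at -92.7 kb from the Etv5 start (upstream), over 845, 576 and 344 bp. With the single WT counterpart at Gli3, these are 1 and 1 of 112 regions, where 0.347% and 0.907% of all regions were restricted to cKO and to WT in this way.

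Genes of the same families and pathways showed no call in the 20 kb windows with limma on the full lists. Of 11 paralogs of the members 10 were tested, 8 with a positive and 2 with a negative log2 change, and 3 were below an unadjusted p of 0.05. The median was 0.11, where over all genes 65.3% were positive, 9.95% were below that p and the median was 0.05. Etv4, a relative of Etv5 that Fgf signalling also induces, had 3950 ± 155 bp in cKO and 2719 ± 431 bp in WT (SD, n = 3 each), a log2 change of 0.47 ± 0.12 (SE) and a limma adjusted p of 0.104. In lists of equal length Etv4 was called, with a log2 change of 0.74 and a limma adjusted p of 0.0202. Dmrta1 and Dmrt3, relatives of Dmrta2, had log2 changes of 0.31 and 0.28 with limma adjusted p of 0.352 and 0.392. Of the other Gli genes, Gli1, a Sonic hedgehog target, had 0.25 with a limma adjusted p of 0.538 and Gli2 had -0.13 with 0.770. Otx2 had no covered base in any library.

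Of 17 genes for patterning signals, their receptors and feedback inhibitors, 14 were tested, 12 with a positive and 2 with a negative log2 change, with 4 below an unadjusted p of 0.05 and a median of 0.14, beside the same shares and median over all genes. Fgf15, an Fgf ligand of the forebrain, had 5494 ± 364 bp in cKO and 4293 ± 419 bp in WT (SD, n = 3 each), a log2 change of 0.32 and a limma adjusted p of 0.328. Spry1 and Spry2, feedback inhibitors that Fgf signalling induces, had 0.32 and 0.29 with limma adjusted p of 0.339 and 0.483. Wnt3a, a hem signal, had 0.30 with 0.485. These are the 4 with the smallest p. The 2 negative changes were those of Wnt8b, at -0.42 with a limma adjusted p of 0.670, and Fgfr2, at -0.06 with 0.897. Wnt8b varied widely, with 2214 ± 2358 bp in cKO and 2479 ± 1941 bp in WT. Fgf8 had 0.09 with a limma adjusted p of 0.852. Of 14 genes with graded or area-restricted cortical expression, 7 had positive and 7 negative changes, with none below an unadjusted p of 0.05 and a median of -0.002. The smallest p among them was that of Rorb, a marker of sensory layer 4, with 4125 ± 590 bp in cKO and 4953 ± 746 bp in WT, a log2 change of -0.24 and a limma adjusted p of 0.524. Id2, Efna5 and Lmo4 had 0.19, -0.17 and 0.15 with limma adjusted p of 0.668, 0.712 and 0.721.

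The likeness of each member's profile to other genes was measured as the root mean square difference of centred log2 scaled covered length over the 6 libraries, among 15359 genes. The nearest gene on another chromosome was Insc for Gli3, at 0.057, Nfix for Lhx2, at 0.010, Rhbg for Dmrta2, at 0.011, Gzmm for Emx2 and Zcchc10 for Nr2f1, both at 0.016. For Etv5 it was Elmod3, at 0.022, for Nr2f2 Hs3st3a1, at 0.025, for Sp8 Dnmt1, at 0.026, and for Otx1 Zfand5, at 0.034. These profiles share the libraries and their list totals.

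Genes that mark cortical cells carried peaks in both genotypes. Emx1, a homeobox gene of cortical progenitors, had a scaled covered length in the 20 kb window of 19270 ± 1441 bp in cKO and 19252 ± 1104 bp in WT (SD, n = 3 each), and Tbr1, a T-box gene of deep-layer neurons, had 24496 ± 2226 bp in cKO and 22292 ± 4175 bp in WT. The 8 markers of the ventral forebrain summed to 117571 to 129697 bp in cKO and 95573 to 132860 bp in WT, with Nkx2-1 at 0 in all 6 libraries, and the 6 that were tested all had positive log2 changes with a median of 0.16. The 4 vascular markers summed to 8095 to 8988 bp in cKO and 7007 to 9692 bp in WT, with Tek at 0 throughout, and the 3 thalamic markers to 23355 to 26835 bp in cKO and 24121 to 31593 bp in WT. These ranges overlap, unlike those of the meningeal and microglial markers given with Gli3. How often sums of so few genes separate in this way was not measured. No marker of these 5 kinds of other cells that was tested in the 20 kb windows was called with limma or was below an unadjusted p of 0.05. Dcn, Foxc1, Cx3cr1, P2ry12, Cldn5, Tek, Gsx2 and Nkx2-1 were below the minimum length there and were not tested. In the 100 kb windows no tested marker of these kinds was called either. At an unadjusted p below 0.05, 2 of 4 meningeal and 1 of 4 microglial markers were shorter in cKO there, and 2 of 7 tested ventral forebrain markers were longer. Prdm16 itself had 94807, 92566 and 87354 bp in cKO and 92637, 96576 and 59878 bp in WT. Scaled, its 3 cKO values lay above its 3 WT values in both windows, as at 7.08% of all genes with 20 kb and 8.68% with 100 kb. Unscaled, the genotypes overlapped, with a log2 change of 0.17 in both windows. Scaled, Prdm16 had a log2 change of 0.28 ± 0.11 (SE), an unadjusted p of 0.0206 and a limma adjusted p of 0.359 in the 20 kb window. In the 100 kb window these were 0.28 ± 0.08, 0.00558 and 0.160. Covered length over the whole gene does not check the deletion.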

How the data were processed

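Native H3K27ac chromatin immunoprecipitation libraries of E15.5 cortex (3 cKO, 3 WT) were analysed, and the 6 input libraries were not analysed here. Per the submitters' processing notes, the tools were MACS2 2.1.1, Bowtie2 2.2.8, cutadapt and FastQC, and the build mm10. Parameters, and whether inputs served as control, go unstated in the sources used here. The deposited broad peak lists hold, per peak, a score for display that was left aside, a fold enrichment ratio, and -log10 p and -log10 q values, all made by the authors. The lowest -log10 q was 1.31 to 1.39.

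Gene positions are those of RefSeq on GRCm38.p6. Covered length per window was scaled to the mean list total, log2 transformed after adding 500 bp (peak number after adding 1) and tested with limma 3.58.1 (R 4.3.3) with batch as covariate, Benjamini-Hochberg adjustment over all genes with a mean of at least 1000 bp (at least 1 peak, or 500 bp for merged regions) and a threshold of 0.05. Fold changes of low loci are understated on this scale. Covered length reflects the number and width of called peaks, not their height, and overlapping gene windows share peaks. Tables were made with Python 3.11.15, and the scripts were tested on simulated data.

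The members, gene lists and tests were chosen with earlier results of these data known. Named genes are all members, Prdm16, up to 4 genes per list with the smallest p (Gli2 and Otx2 were added after their values were seen), up to 3 regions per member with the smallest p of which those at an unadjusted p below 0.05 are named, every region restricted to 1 genotype, and the gene with the most similar profile. The widest, promoter and 157 kb domains of Gli3 were added after their values were seen. Alternatives were a -log10 q of at least 5, lists of equal length, each library left out, no batch term, batch A (replicates 1 and 2) alone, a replicate block, no scaling, a pseudocount of 100 bp, no filter, other overlap rules, and, chosen after seeing the data, scaling to the sum over gene windows. Some genes of the cortex marker list are not reported here.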

Additional observations from a re-analysis of the deposited data

How the results depend on the processing

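No member was called in the 20 kb windows under any alternative, and Gli3 kept a negative log2 change under all of them, between -0.64 and -0.45 in the 20 kb and between -0.62 and -0.43 in the 100 kb window. The 100 kb call of Gli3 was made only with the batch term and with the replicate block (limma adjusted p 0.0260); 0 members were called with -log10 q of at least 5, lists of equal length, no batch term, batch A alone, no scaling, a pseudocount of 100 bp, no filter, scaling to gene windows and without each replicate (range 0 to 0). Same-numbered libraries correlated at 0.132, 0.0629 and 0.261. By this measure cKO 2 and cKO 3 were closest to the WT library of the same number, while cKO 1 was closest to WT 2 (0.167). Whether replicate numbers pair the samples was therefore not settled.

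Genes called in 20 kb windows (106) numbered 38 with -log10 q of at least 5, 58 in equal lists, 39 without batch, 3 in batch A, 168 with the replicate block, 1 unscaled, 39 with 100 bp, 23 unfiltered, 42 scaled to gene windows and 2 to 232 without each replicate (2 without cKO 3, WT 2 or WT 3, 232 and 228 without cKO 1 or 2). In 100 kb windows (151) they numbered 53, 73, 42, 61, 258, 40, 68, 78, 42 and 47 to 170 in the same order (47 without WT 3, 70 without cKO 3, 90 without WT 2). For peak number (16) the counts were 0, 217, 2, 0, 183 with the block, 138 unscaled, 1 scaled to gene windows and 0 to 167 without each replicate (159 and 167 without cKO 1 or 2, otherwise 0). For merged regions (205) they were 324 with -log10 q of at least 5, 99 in batch A, 60 unscaled, 94 with 100 bp, 90 unfiltered and 74 to 234 without each replicate (80, 84 and 74 without WT 1, 2 or 3, 116 without cKO 3). Member regions called were 1 with the replicate block and 0 to 3 without each replicate: 3 without cKO 1 and 2 without cKO 2. Regions restricted to cKO numbered 0 with -log10 q of at least 5, in equal lists and at 50% overlap, and 1 to 2 without each replicate; those restricted to WT numbered 0, 1 and 0, and 1 to 6 without each replicate, the 6 without WT 3. Without scaling, the median over all genes moved to -0.05 in 20 kb and -0.06 in 100 kb windows.

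Small changes turned sign. Without scaling, Emx2, Lhx2 and Dmrta2 had -0.041, -0.026 and -0.0081 in 20 kb and -0.068, -0.034 and -0.033 in 100 kb windows; in equal lists Lhx2 had -0.010 and -0.027. Without each replicate, Emx2 ranged from -0.021 to 0.21 in 20 kb and -0.017 to 0.17 in 100 kb windows, and Lhx2 from -0.0030 to 0.25 and -0.0081 to 0.23, below 0 without WT 2 at both genes and without cKO 2 at Emx2. With -log10 q of at least 5, Dmrt3 had -0.090, Efna5 0.15 and the Lhx2 region -0.085. For peak number, Lhx2 had -0.21 in equal lists, Otx1 -0.031 in equal lists and unscaled and -0.014 in batch A, and Sp8 0.038 in batch A. Without each replicate, Otx1 ranged from -0.048 to 0.19 and Sp8 from -0.39 to 0.038. The causes were not tested, and depth cannot be read from peak lists.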
